A study of Mus musculus with 12 samples.

Results

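The response of FAK knockout fibroblasts to crowding was measured on 6 arrays, 3 of densely seeded and 3 of sparsely seeded cells, out of 12 arrays in the series. The 6 arrays were taken by their sample titles, which name the line and the seeding. The knockout line (FAK KO, ATCC CRL-2644) is a line of mouse embryonic fibroblasts that lacks focal adhesion kinase. The remaining 6 arrays hold the rescue line (clone DA2), in which FAK was put back, at the same densities, with 3 arrays each. Each genotype is represented by a single line, so a difference between the lines is a difference between these cultures. The lines were also fed differently: the rescue medium held hygromycin B and non-essential amino acids, and the KO medium held neither. Dense 10 cm dishes received 20 times as many cells as sparse dishes and were harvested with trypsin after 24 h. Each density was seeded once on each of 3 experimental days, and the replicate number is the day. The 3 replicates are biological replicates according to the series' design text.

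FAK, encoded by Ptk2, is a cytoplasmic tyrosine kinase that is recruited to integrin clusters and passes adhesion signals to Src, the CAS adaptors, small GTPases and the ERK cascade. Adherent fibroblasts normally slow their growth when they touch their neighbours: spreading is restricted, actin stress fibres and the YAP and SRF transcription programmes that they feed lose activity, and cell cycle genes are shut down. Sterol genes follow a separate switch, in which low cholesterol in the endoplasmic reticulum releases SREBP factors that activate the enzymes of cholesterol and fatty acid synthesis. The comparison asked which transcripts followed cell density in cells that lack FAK.

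Levels are given as log2 of the processed signal minus the 75th percentile of the same array, so that 0 is the 75th percentile of that array and a difference of 1 is a doubling. A gene passed the test when its adjusted p from limma, with Benjamini-Hochberg adjustment over all 12435 genes, was under 0.05. The 75th percentile of the signal was 294 to 688 units on the sparse KO arrays and 951 to 1594 on the dense ones, and 23282 to 26183 probes were well above background. Replicate KO arrays correlated at 0.98 to 0.99 across genes.

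The control spots moved with density. Synthetic spike-in RNAs, added to the same 100 ng of total RNA, stood 4.15, 2.81 and 3.65 above the 75th percentile in sparse KO cells on days 1, 2 and 3, and 0.63, 0.32 and 0.37 above it in dense KO cells. The probe for 28S ribosomal RNA read 8.15, 7.37 and 6.44 in sparse and 2.37, 0.81 and 0.73 in dense cells. On every day the spike-in and 28S signals were higher in the sparse KO array than in the dense one, with no overlap, and in the rescue line the spike-in values were closer together, at 1.63 to 2.35 in sparse and 0.86 to 1.70 in dense cells. The part of this in the results was not tested, and every change reported here is relative to the bulk of the transcripts on the array. With arrays centred on the spike-in signal instead, the median gene was 3.09 higher in dense KO cells and 12377 genes passed as higher against 2 as lower, so the falls below are mostly falls relative to the other transcripts. On that scale Fosl1 (-1.38, adjusted p = 0.012) and the 28S probe Rn28s1 (-2.92, adjusted p = 7.5e-05) still passed as lower, and Fam13c, Ptpn22 and Sgk1 were at -0.42, -0.32 and -0.0026 without passing.

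**Figure D1:**
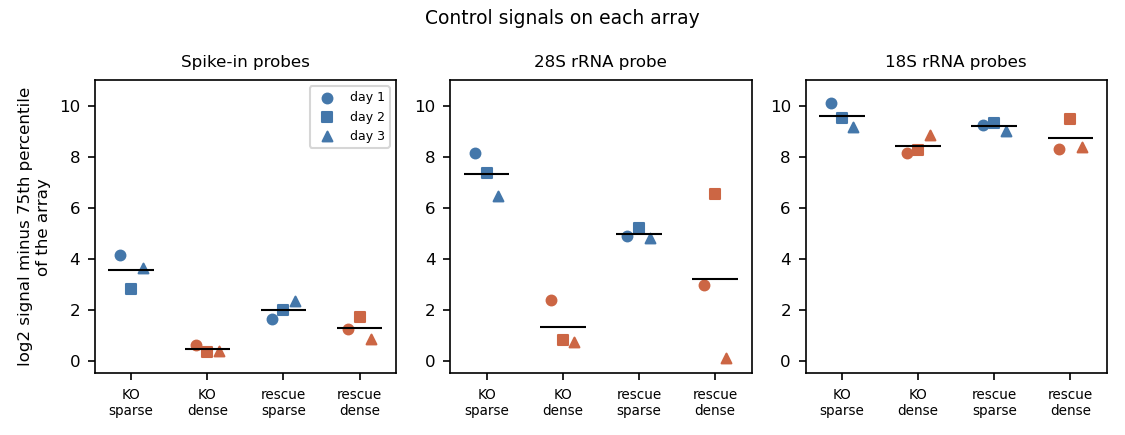
Control signals on each of the 12 arrays, in log2 units above the 75th percentile of the array, for spike-in probes, the 28S probe and the 18S probes. Symbols are the 3 days and horizontal lines are group means. The 3 dense KO arrays lie at 0.32 to 0.63 for the spike-in probes and the 3 sparse KO arrays at 2.81 to 4.15.

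The cells carried mesenchymal markers, with 10 of 14 fibroblast markers well above background on all 6 KO arrays, among them Col1a1, Col1a2, Dcn, Vim and Twist1. Twist2, Lum and Postn were above background on none. Mesothelial markers were also present, 11 of 12 on all 6 arrays, with Wt1 at 4.43 to 4.83. Of 11 epithelial markers 3 were above background on all 6 KO arrays (Krt5, Krt7 and Krt14) and 5 on none, among these the cadherin Cdh1. Their summed signal was 1022 to 1639% of the 75th percentile in sparse and 2430 to 2877% in dense cells, with no overlap, and the keratin Krt14 went from 3.10, 3.79 and 3.73 to 4.74, 4.49 and 4.57, a rise of 1.06 ± 0.30 (SE, adjusted p = 0.045). Of 10 endothelial markers 2 were above background on all 6 arrays and 6, with Pecam1, on none, and the sum was 51.2 to 97.7% in sparse and 65.1 to 112% in dense cells. Of 11 leukocyte markers 3 were above background on all 6 arrays and 4, with Ptprc, on none. Their sum was 75.01 to 147% in sparse and 58.7 to 75.9% in dense cells, and Csf1r, the receptor of macrophage growth factors, was 0.79 lower (adjusted p = 0.039). Summed signal of the 7 smooth muscle markers on the array was 14350 to 19400% of the 75th percentile in sparse and 7841 to 13210% in dense cells, and 3 of the 7 passed as lower. The part of these markers in the results was not tested. The probes of the targeted gene do not test the labels, because their position relative to the deleted part is not known here. The first Ptk2 probe read 0.03 to 0.50 on the KO arrays and 0.08 to 0.48 on the rescue arrays, and the other read -1.88 to -1.1 in KO cells and -0.97 to 1.24 in rescue cells. Neither passed the test of density in KO cells, with differences of 0.08 ± 0.18 (SE, adjusted p = 0.81) and -0.24 ± 0.31 (adjusted p = 0.66). The related kinase Pyk2 (Ptk2b) was 1.01 ± 0.32 higher in dense cells by its brighter probe, which missed the threshold (adjusted p = 0.063), and -0.64 by its other probe.

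In bulk samples a change in the make-up of the culture and a change within cells cannot be told apart. In the authors' deposited value table the 4 columns of day 3 matched the scanner files of the other line at the same density, at r = 0.97 to 0.98 against 0.83 to 0.87 for their own, while the scanner files grouped with their labelled lines, so all values here come from the scanner files.

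Crowding changed 1356 of 12435 genes in KO cells (10.9%), 676 of them higher (5.44%) and 680 lower (5.47%) in dense cells. Of these, 766 differed at least 2-fold (6.16%). At an unadjusted p under 0.05 in limma 3373 of the 12435 genes differed, which is the background for the list counts at that threshold below. Dense and sparse arrays did not overlap for 4745 genes (38.2%), which include 1350 of the 1356 that passed. The median gene differed by -0.0029 and the middle 50% of genes lay between -0.34 and 0.33. These counts depend on single arrays and on the background correction. Without a single array they ranged from 514 to 1042, with 514 without the dense array of day 2, 601 without the sparse array of day 1, 671 without the sparse array of day 3 and 879 without the dense array of day 1. With normexp background correction 48 genes passed. Centring arrays on the median in place of the 75th percentile gave 1227 higher and 290 lower genes (80.9% higher, against 49.9% here), and quantile normalization gave 948 and 553 (63.2%). With KO arrays alone and day as a replicate block 540 genes passed, 265 higher and 275 lower. Genes followed by name that this fit kept stood just under the threshold, with a limma adjusted p of 0.048 for Fam13c, Sgk1 and Eln. That fit ended the call of 58 of the 145 genes followed by name, with adjusted p from 0.051 for Mt2 to 0.14 for Gsta1, among them Myc (0.052), Ankrd1 (0.053), Pdgfrb (0.055) and Parvb (0.055). In it no member of the sterol efflux, Wnt, caveolar or YAP and TEAD lists passed as higher and none of the ribosome biogenesis list as lower, against 3, 3, 2, 2 and 4 here.

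**Figure D2:**
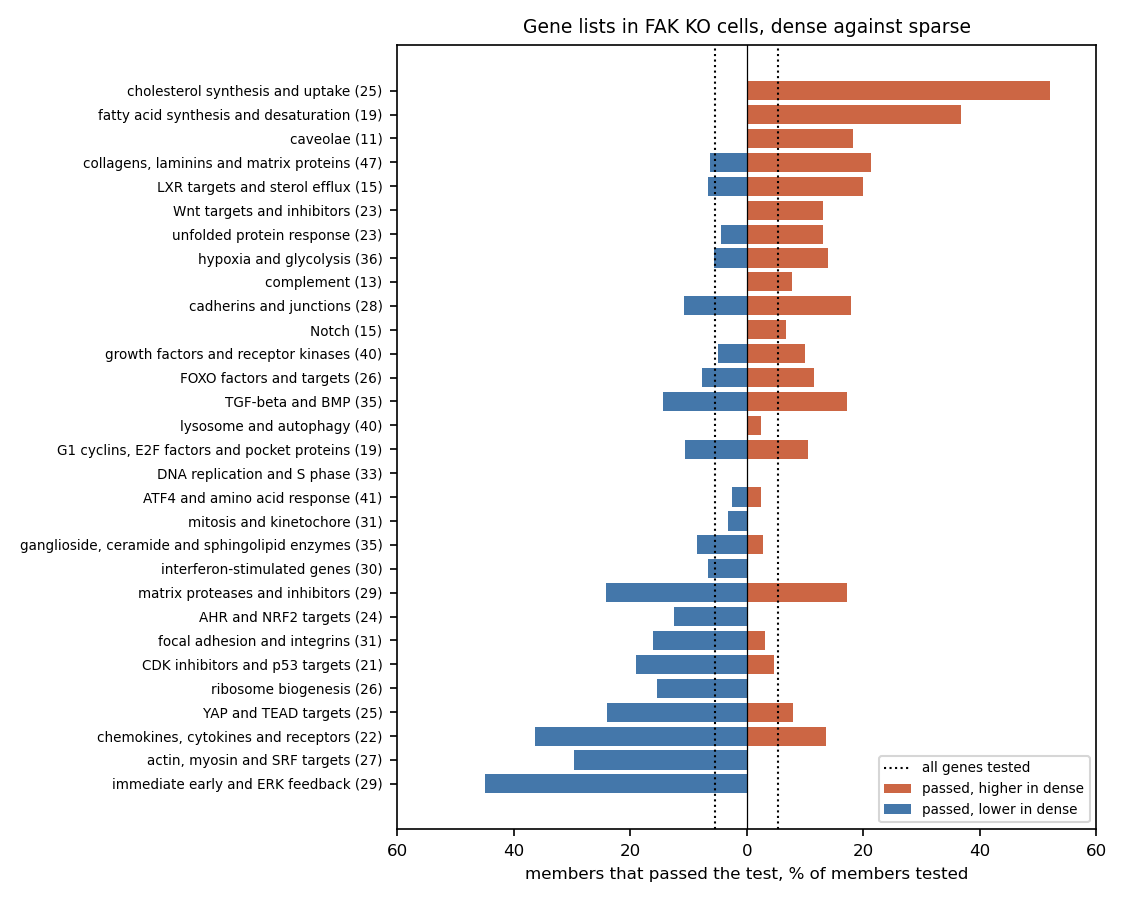
Share of the members of 30 gene lists that passed the test in each direction in KO cells, dense against sparse, with the number of members tested in brackets. Dotted lines mark the shares over all genes tested, 5.44% higher and 5.47% lower. Cholesterol synthesis and uptake stands at the top with 13 of 25 members higher, and the immediate early list at the bottom with 13 of 29 lower.

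Cholesterol synthesis was the list with the most members higher in dense KO cells. Of 25 members tested, 13 rose, none fell and 12 did not pass (19 higher and 1 lower at an unadjusted p under 0.05 in limma), and the list's median was 0.78 against -0.0029 over all genes. Within days the median was 1.12, 0.64 and 0.70. Enzymes of early, middle and late steps of the pathway are among those that rose. Fdps, farnesyl diphosphate synthase, read 2.30, 2.88 and 2.38 in sparse cells on days 1 to 3 and 4.81, 4.51 and 4.09 in dense cells. Every dense array was above every sparse array, and the mean difference was 1.95 ± 0.24 (SE, adjusted p = 0.0017), or 3.86-fold. Hmgcs1, which makes HMG-CoA for the mevalonate pathway, read 3.07, 2.58 and 2.73 in sparse and 4.60, 4.03 and 3.71 in dense cells, a rise of 1.32 ± 0.31 (adjusted p = 0.021). Fdft1, squalene synthase, went from 0.96, 1.23 and 1.05 to 2.96, 2.41 and 2.09, a rise of 1.41. Its dense values were lowest on day 3 and still above all sparse values.

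The later sterol enzymes followed. Tm7sf2, a sterol reductase, read -2.90, -2.86 and -3.02 in sparse and -1.08, -1.03 and -1.77 in dense cells, a rise of 1.63 ± 0.22 (adjusted p = 0.0019). Nsdhl, which removes methyl groups from sterol intermediates, rose by 1.51 ± 0.19 (adjusted p = 0.0017), from -1.41, -0.87 and -1.14 to 0.42, 0.37 and 0.33. Other enzymes that passed were Pmvk, Mvd, Sqle, Cyp51 and Sc5d, with rises of 0.78 to 1.18. Srebf2, the transcription factor of the pathway, rose by 0.96 ± 0.28 (adjusted p = 0.0495), with a sparse value of 0.56 on day 1 against 1.52 and 1.61 on the other days. Members that did not pass include Mvk (0.66), Dhcr7 (0.83) and Insig1 (0.30). Without a single KO array 8 to 12 members passed as higher, with 8 without the sparse array of day 1 or day 3 or the dense array of day 2. Under normexp correction 1 did, with a list median of 0.76.

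Promoter stretches of some of these genes are shown that hold either SRE-1 or CCAAT, elements that sterol genes are known for. RefSeq windows of build GRCm38.p6, from 250 bases before to 50 after the gene start, were matched by symbol for 9936 of the 12435 genes. The stretches below each lie upstream of the start and run 5′ to 3′ on the gene's strand. Capitals mark the SRE-1 letters TCACNCCAC in the first, at chr13:119690188-119690248 on the plus strand, and CCAAT or its reverse complement in the others, at chr8:122443423-122443483 (minus), chr19:6067865-6067925 (minus), chr5:4104698-4104758 (minus) and chr15:82147106-82147166 (plus).
Hmgcs1: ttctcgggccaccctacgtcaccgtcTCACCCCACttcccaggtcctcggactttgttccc
Mvd: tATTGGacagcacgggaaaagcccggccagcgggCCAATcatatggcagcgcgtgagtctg
Tm7sf2: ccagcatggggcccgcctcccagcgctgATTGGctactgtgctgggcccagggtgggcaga
Cyp51: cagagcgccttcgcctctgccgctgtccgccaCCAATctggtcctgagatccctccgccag
Srebf2: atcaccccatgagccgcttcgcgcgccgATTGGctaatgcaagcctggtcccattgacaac

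On either strand, CCAAT occurred in 15 of the 17 windows found for the cholesterol list (88.2%) against 39.1% of all 9936. It was also in 64.3% of windows of the DNA replication list and 63.6% of the actin list. The immediate early list had 43.5% and the YAP and TEAD list 17.6%. Windows of cholesterol genes that passed and of those that did not both hold CCAAT. SRE-1 in this strict spelling occurred in 1 of the 17 cholesterol windows (5.88%) against 1.05%. Over the whole response the shares were close to those of all genes: CCAAT was in 41.4% of 517 higher and 37.8% of 521 lower genes, and SRE-1 in 1.74% and 0.96%. A match is a description of these letters, and no share was tested.

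Fatty acid genes moved the same way, with 7 of 19 members higher, none lower (10 and 0 at an unadjusted p under 0.05 in limma) and a list median of 0.65. Lpin1, a phosphatidate phosphatase, rose from -3.46, -3.59 and -4.02 to -1.76, -1.97 and -2.36, by 1.66 ± 0.28 (adjusted p = 0.0050). The desaturases moved together. Scd1 read -0.36, 0.29 and 1.17 in sparse and 1.60, 2.13 and 2.26 in dense cells, a rise of 1.63 ± 0.35 with a wide spread among the sparse arrays (adjusted p = 0.014). Scd2, at 5.04 to 5.21 in sparse and 6.00 to 6.55 in dense cells, rose by 1.19, and the polyunsaturated fatty acid desaturases Fads1 and Fads2 rose by 1.19 and 1.33.

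Sterol efflux genes gave a mixed picture, with 3 of 15 members higher and 1 lower. Apoe, the lipoprotein component, rose by 1.31 ± 0.29 (adjusted p = 0.017), the HDL receptor Scarb1 by 1.03 ± 0.17 (adjusted p = 0.0044) and the lysosomal cholesterol exporter Npc1 by 0.65 ± 0.18 (adjusted p = 0.039). Abca1, the transporter that loads cholesterol onto apolipoprotein A-I, read -0.13, -0.94 and -0.75 in sparse and 0.07, -0.04 and -0.56 in dense KO cells. Its groups overlapped, and the difference of 0.43 ± 0.38 did not pass (adjusted p = 0.51). Among enzymes of ganglioside, ceramide and sphingolipid metabolism 1 of 35 rose and 3 fell, beside 5.44% higher and 5.47% lower over all genes. These counts are too small to differ clearly from those shares. The ceramidase Asah1 rose by 1.32 and the ceramide synthase Cers6 fell by 1.83. Of 11 caveolar genes, Cavin3 and Ehd2 rose by 0.80 and 0.81 and none fell (2 higher and 1 lower at an unadjusted p under 0.05 in limma). These small counts rested on single arrays. Without any 1 KO array 1 or 2 efflux genes and 0 or 1 caveolar genes rose, and none of the sphingolipid genes fell without the dense array of day 1 or day 2 or the sparse array of day 2.

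**Figure D3:**
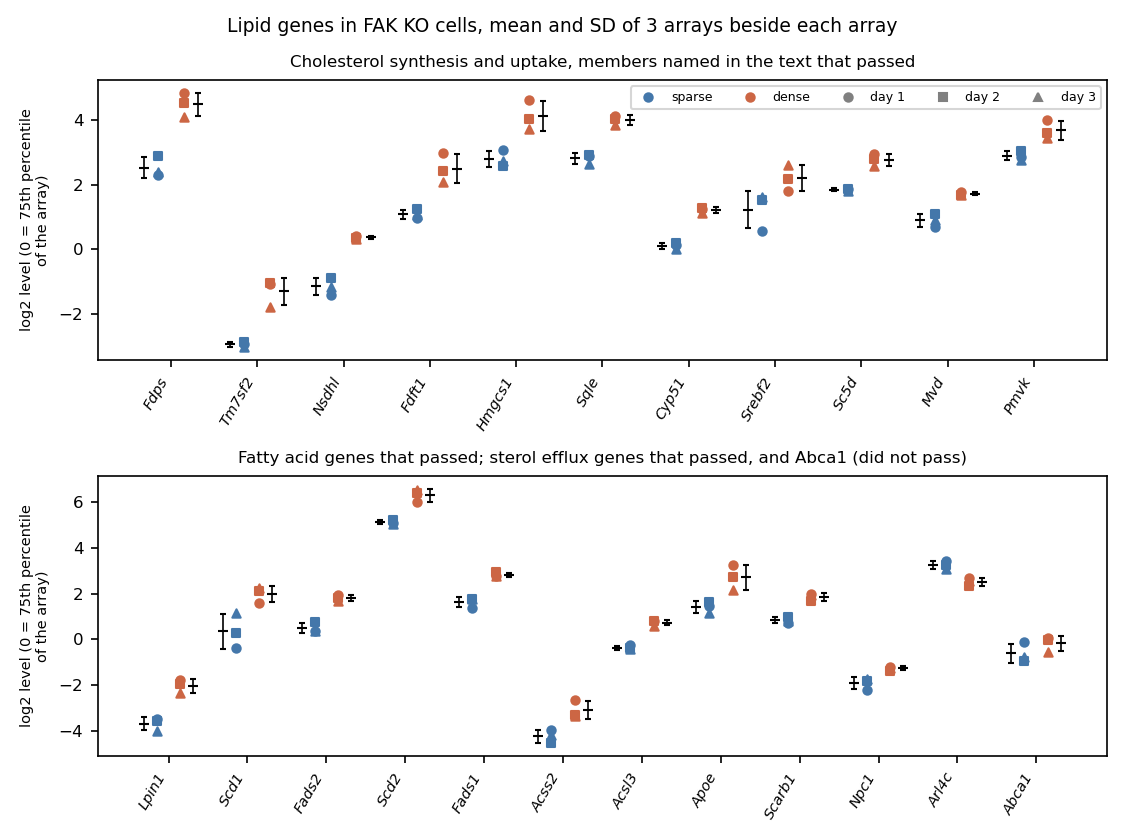
Levels of lipid genes on each KO array (log2, 0 is the 75th percentile of the array), sparse in blue and dense in orange, with symbols for the 3 days and black bars for the mean and SD of 3 arrays. The sparse and dense arrays of Fdps (2.30 to 2.88 and 4.09 to 4.81) are apart, and those of Abca1 (-0.94 to -0.13 and -0.56 to 0.07) overlap.

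Immediate early genes and the feedback inhibitors of the ERK cascade fell. Of 29 members tested 13 fell and none rose (18 and 2 at an unadjusted p under 0.05 in limma), and the median was -0.78, with -0.93, -0.62 and -0.67 on the 3 days. The steepest was Fosl1, which encodes the AP-1 subunit FRA-1. It read 0.99, 0.64 and 0.65 in sparse and -5.22, -3.44 and -2.50 in dense cells, where it was well above background on 2 of 3 arrays, a fall of 4.48 ± 0.51 (adjusted p = 0.0013). Etv4 and Etv5, ETS factors induced by ERK, fell by 1.60 and 1.76. By its brightest probe Etv5 was tight in both groups, at -0.24, -0.14 and 0.04 in sparse and -1.66, -1.99 and -1.96 in dense cells. With its probes averaged Etv5 did not pass.

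The phosphatases that switch MAP kinases off moved in parallel. Dusp2 fell by 1.88 ± 0.21 (adjusted p = 0.0011), from -0.32, -0.33 and -0.57 to -2.51, -2.54 and -1.83. Dusp1, Dusp4 and Dusp6 fell by 0.78, 1.47 and 0.95, and with day as a replicate block the adjusted p of Dusp1 was 0.062. Phlda1, an inducible regulator of growth factor signalling, fell from 4.0, 3.64 and 3.92 to 2.29, 1.85 and 2.47, by 1.65 ± 0.22 (adjusted p = 0.0018). The others that fell were the ERK inhibitor Spred1 (by 1.19), the nuclear receptor Nr4a1 (by 1.41), and Junb, Klf6 and Ier5 (by 0.95, 1.53 and 0.69). Egr1 read 0.67, 0.79 and 1.12 in sparse and -0.26, 0.44 and 0.00 in dense cells, and its difference of -0.80 ± 0.30 did not pass (adjusted p = 0.11). Without a single array 10 to 12 members fell, and under normexp correction 3 did.

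Actin and SRF target genes fell as well, 8 of 27 lower and none higher (21 and 0 at an unadjusted p under 0.05 in limma), with a median of -0.74. Both cytoplasmic actins are among them. Actb, beta actin, read 2.14, 1.56 and 2.31 in sparse and 0.09, -0.08 and 0.67 in dense cells, a fall of 1.78 ± 0.33 (adjusted p = 0.0074). Actg1, gamma actin, read 7.86, 7.85 and 7.63 in sparse and 6.09, 6.96 and 7.09 in dense cells, a fall of 1.06 ± 0.25 (adjusted p = 0.022). The actin-binding calponin Cnn2 fell by 1.54 from 2.59, 2.66 and 2.68, the tightest sparse group of the list, to 0.62, 1.33 and 1.37. Fhl2, a LIM protein and SRF target, went from 2.85, 2.22 and 2.47 to 1.04, 0.72 and 0.76. Cnn1, the non-muscle myosin Myh9 and Lmod1 fell by 1.00, 0.94 and 1.12, and Fosl1 is also on this list. Smooth muscle actin, Acta2, read 6.72 to 7.30 in sparse and 5.94 to 6.75 in dense cells, groups that overlap, and its difference of -0.59 did not pass (adjusted p = 0.13). With a gene's probes averaged, 14 members of the list fell in place of 8.

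SRF binds the CArG box, made of CC, 6 bases of A or T, and GG. It occurred in 6 of the 22 windows found for this list (27.3%) against 1.43% of all windows, 2.3% of those of lower genes and 0.967% of those of higher genes. The stretches with a box, in capitals, upstream of genes of this list that fell are at chr11:120348550-120348610 (minus strand), chr10:79988519-79988579 (plus) and chr1:43196822-43196882 (minus).
Actg1: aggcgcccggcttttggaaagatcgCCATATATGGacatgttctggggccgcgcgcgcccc
Cnn2: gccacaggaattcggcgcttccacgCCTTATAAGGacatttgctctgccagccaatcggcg
Fhl2: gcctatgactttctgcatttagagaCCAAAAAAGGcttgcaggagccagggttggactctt
Windows of Vcl, Srf and Fhl1, whose differences of 0.07, -0.43 and -0.51 did not pass, also hold a box.

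YAP and TEAD genes fell in part, with 6 of 25 lower, 2 higher and a median of -0.42. Ankrd1, a YAP target, read 5.16, 4.53 and 4.78 in sparse and 1.62, 2.14 and 3.20 in dense cells, a fall of 2.51 ± 0.35 (adjusted p = 0.0023), or 5.68-fold. The matricellular targets Ccn2 and Ccn1 fell by 1.76 and 0.96, Ccn2 from 5.48, 5.20 and 6.02 to 3.10, 3.76 and 4.57. The pair that differed least was that of day 3 for Ankrd1 and that of day 2 for Ccn2 (-1.43, with -1.46 on day 3). Of the TEAD factors that pair with YAP, Tead1 fell by 1.33, Tead4 by 1.39, and Tead2 rose by 0.90. Igfbp3, an IGF-binding protein, rose by 1.46. Without the dense array of day 2, 3 members fell, and 4 fell without the dense array of day 1 or the sparse array of day 1 or day 3, and with arrays centred on the median the list's median was -0.17. The TEAD letters GGAATG were in 10 of the 17 windows found for this list (58.8%) and in 9 of the 22 of the actin list (40.9%), against 12.2% of all windows, 13.2% of those of lower genes and 13% of those of higher genes. These shares are a description and were not tested.

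**Figure D4:**
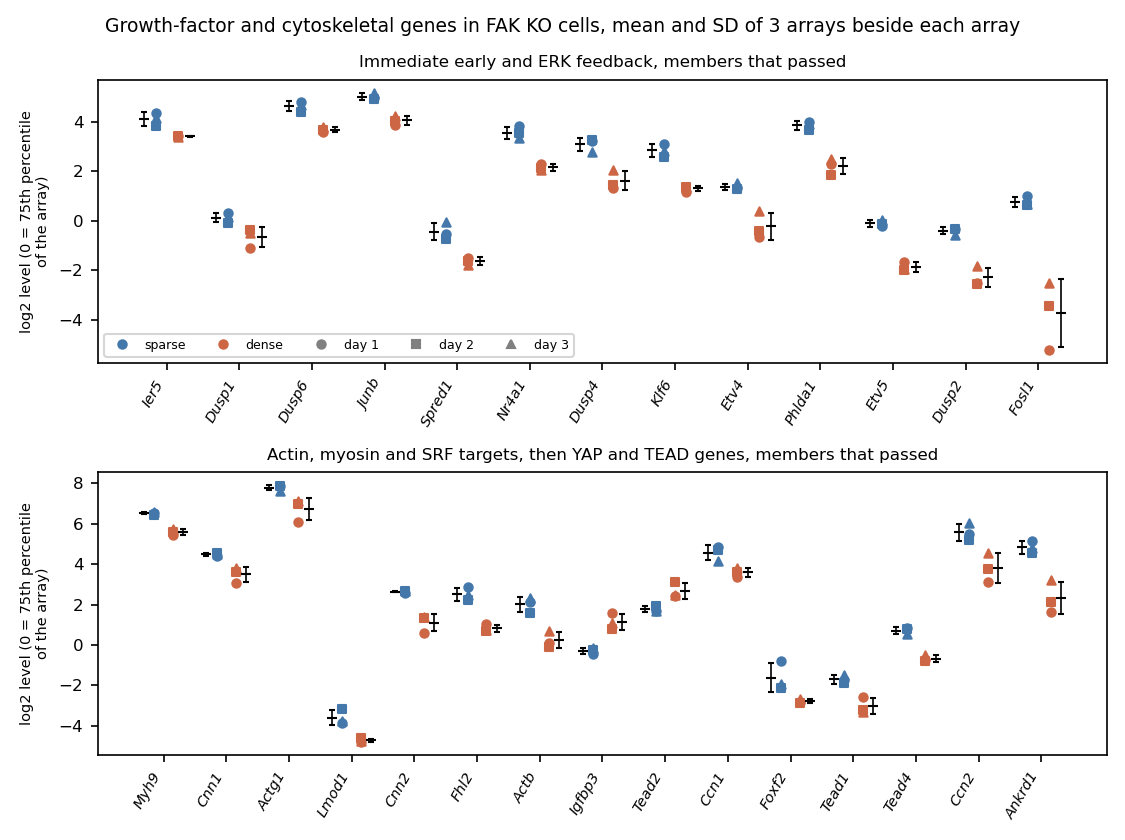
Levels of immediate early, actin and YAP genes that passed, on each KO array (log2, 0 is the 75th percentile of the array), sparse in blue and dense in orange, with symbols for the 3 days and black bars for the mean and SD of 3 arrays. Dense arrays of Fosl1 spread from -5.22 to -2.50 and all lie below the sparse arrays at 0.64 to 0.99.

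Of 31 adhesion genes tested, 5 fell and 1 rose, with a median of -0.04, and without the dense array of day 2 or the sparse array of day 3, 1 or 2 fell. Itga7, a laminin-binding integrin chain, fell by 1.79 ± 0.24 (adjusted p = 0.0021) from -0.55, -0.36 and -0.42 to -2.69, -2.29 and -1.72, and Itgav fell by 1.13. The CAS adaptors, substrates of FAK and Src, went in opposite directions. Bcar1 fell by 1.00 ± 0.25 (adjusted p = 0.026) and Nedd9 rose by 1.28 ± 0.20 (adjusted p = 0.0040), from -2.42, -1.89 and -1.92 to -0.50, -0.92 and -0.97. Parvb, beta-parvin, an adaptor of integrin-linked kinase, was 3.06 ± 0.44 higher in dense cells (adjusted p = 0.0026). It was above background on 1 sparse array and on all dense arrays, at -5.70, -4.01 and -5.60 against -1.28, -2.08 and -2.78.

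Chemokines and cytokines fell in 8 of 22 cases and rose in 3, with a median of -0.50 that was -0.13 under quantile normalization. Ccl20 read -0.63, -0.12 and -0.46 in sparse and -4.20, -3.24 and -2.10 in dense cells, a fall of 2.78 ± 0.47 (adjusted p = 0.0052). The monocyte attractants Ccl2 and Ccl7 fell by 2.19 and 2.56, Ccl2 from 4.91, 5.78 and 5.65 to 2.56, 3.12 and 4.09. Il6 fell by 2.77 ± 0.28 (adjusted p = 0.00095), and in dense cells it was above background on 1 array. Ptgs2, the inducible cyclooxygenase, was above background on all sparse arrays and on no dense array, at least 2.74-fold lower in dense cells, where the bound sets the sparse mean against the detection limit of the dense arrays. The scavenging chemokine receptor Ackr3 rose by 2.34 ± 0.34 (adjusted p = 0.0028), from -3.33, -3.49 and -3.40 to -0.69, -0.65 and -1.87, and Il33 rose by 1.39. Of 30 interferon-stimulated genes, Cxcl10 and Bst2 fell, by 1.87 and 0.76, and none rose (4 lower and 3 higher at an unadjusted p under 0.05 in limma). Such counts are too small to differ clearly from the 5.44% higher and 5.47% lower over all genes. Without the dense array of day 2 or day 3 or any sparse array, 1 fell.

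Matrix genes went in both directions, with 10 of 47 higher, 3 lower and a median of 0.05. Eln, elastin, read -3.64, -2.86 and -3.49 in sparse and -0.15, -0.16 and -0.34 in dense cells, a rise of 3.12 ± 0.48 (adjusted p = 0.0038), or 8.68-fold. Col14a1 was above background on no sparse array and on all dense arrays, at least 2.17-fold higher in dense cells. Fmod, a proteoglycan of collagen fibrils, rose by 1.78, Col6a1 by 1.28 and Col3a1 by 1.12. The fallers were Col8a1, from 3.51, 3.70 and 3.52 to 0.03, 1.23 and 2.16 (by 2.43 ± 0.43, adjusted p = 0.0065), Fn1, fibronectin, by 0.88, and Col4a2 by 0.80. Without a single array 4 to 9 members rose, with 4 without the dense array of day 2 or the sparse array of day 1, and 5 without the sparse array of day 3 or the dense array of day 1. Outside the list, the proteoglycan gene Prelp was above background on dense arrays only, at least 2.00-fold higher, and Spon2, an extracellular matrix protein, rose by 2.98 ± 0.37 (adjusted p = 0.0017) from -2.84, -1.80 and -2.04 to 1.27, 0.91 and 0.09.

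Proteases and their inhibitors gave 5 higher and 7 lower of 29. The disintegrin metalloprotease Adam19 fell by 2.16 ± 0.23 (adjusted p = 0.0011), from -1.55, -2.11 and -1.76 to -4.03, -4.16 and -3.72. The urokinase receptor Plaur fell by 1.47. The membrane inhibitor of metalloproteases Reck rose by 1.73 and Mmp11 by 1.1. Without a single array 3 to 5 members fell and 2 to 6 rose, with 3 falls without the sparse array of day 1 or day 3 or the dense array of day 2.

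Cell cycle genes hardly moved in KO cells. None of 33 DNA replication genes passed in either direction, with a median of 0.02, 3 under an unadjusted p of 0.05 in limma (1 higher, 2 lower) and 10 with groups that did not overlap (38.2% over all genes). Of 31 mitosis genes, Hmmr, a spindle protein, fell by 1.54 ± 0.43 (adjusted p = 0.041) and 30 did not pass (3 higher and 2 lower at an unadjusted p under 0.05 in limma), with a median of 0.14. Cdc6, which loads the replicative helicase, read 1.00, 0.93 and 1.1 in sparse and 1.28, 1.5 and 1.67 in dense cells (difference 0.47, adjusted p = 0.23). Upstream of the cycle, Myc fell by 2.20 ± 0.36 (adjusted p = 0.0049), from 2.76, 2.37 and 2.78 to -0.32, 0.29 and 1.34, and the G1 kinase gene Cdk6 by 1.81 ± 0.23 (adjusted p = 0.0017), from 0.07, -0.07 and 0.42 to -2.0, -1.68 and -1.32. The pocket proteins Rbl1 and Rbl2, which restrain E2F, rose by 0.90 and 0.92. Among CDK inhibitors Cdkn1a, encoding p21, rose by 0.86 ± 0.23 (adjusted p = 0.037). Cdkn1b, encoding p27, fell by 0.70 ± 0.19 (adjusted p = 0.040). Cdkn1a lost its call whichever of the 6 KO arrays was left out, and Cdkn1b lost it in 5 of these fits. The death receptor Fas fell by 1.22 and Plk2 by 1.32. Whichever single array was left out, 0 or 1 G1 genes rose in place of 2, and 2 or 3 CDK inhibitor and p53 genes fell in place of 4. The self-test on simulated data recovered 45% of genes that differed by 1 and 90% of genes that differed by 2, so smaller shifts could be missed. It changed 100 genes by each amount, with independent noise and no shift of whole arrays, so the rates may differ in the real arrays.

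Ribosome biogenesis factors leaned lower, 25 of 26 below 0 with a median of -0.52, but 4 passed, all lower (16 lower and 1 higher at an unadjusted p under 0.05 in limma): Rrp12 by 1.5, Nat10 by 1.35 and Rrp9 by 1.12, with Nhp2 the remaining gene. Without the dense array of day 2, 1 member fell. FOXO targets gave 3 higher and 2 lower of 26. The cyclin G2 gene Ccng2 rose by 1.70 and the mitophagy receptor gene Bnip3 by 1.03. Without the dense array of day 2 no FOXO target rose, and 1 rose without the dense array of day 1 or any sparse array. Foxo3 itself was above background on 1 KO array, so its difference of -0.20 is not read further. Few lysosomal genes (1 of 40 higher) and amino acid response genes (1 of 41 higher, 1 lower) passed, beside 5.44% higher and 5.47% lower over all genes. These counts are too small to differ clearly from those shares. At an unadjusted p under 0.05 in limma 8 lysosomal genes were higher and 7 lower, and 9 and 4 amino acid response genes. With arrays centred on the median 5 members of each list passed as higher.

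Hypoxia and glycolysis genes gave 5 higher and 2 lower of 36. Aldoc, an aldolase, read -1.21, -0.68 and -1.37 in sparse and 2.04, 1.32 and 0.59 in dense cells, a rise of 2.40 ± 0.33 (adjusted p = 0.0021), or 5.28-fold. Pdk1, which holds pyruvate back from mitochondria, rose by 1.94 from -2.50, -2.13 and -2.18 to 0.17, -0.24 and -0.92, and Car9, a carbonic anhydrase induced by hypoxia, by 1.93. For Aldoc, Pdk1 and Car9 the dense arrays were highest on day 1 and lowest on day 3. The hexokinases fell, Hk1 by 1.65 and Hk2 by 0.90. In the unfolded protein response the degradation factor Derl3 rose by 2.38 ± 0.36 (adjusted p = 0.0031) and the transcription factor Xbp1 by 0.77, and the sensor Ern1 fell by 1.60 ± 0.17 (adjusted p = 0.0011). Without a single array 2 to 5 hypoxia members rose, with 2 without the sparse array of day 3 or the dense array of day 2.

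Signalling genes of the BMP and TGF-beta families split, with 6 of 35 higher and 5 lower. Bmp4 rose by 1.17 ± 0.19 (adjusted p = 0.0050), from 1.41, 1.76 and 1.72 to 2.62, 2.76 and 3.02, and the BMP inhibitor Smad6, itself a BMP target, by 1.29. The BMP antagonist Nog, noggin, read -0.09, -2.50 and -0.63 in sparse and -2.74, -4.36 and -4.78 in dense cells, a fall of 2.89 ± 0.80 with a wide spread (adjusted p = 0.040). Inhba, the activin subunit, fell by 2.14 and the activin antagonist Fst, follistatin, rose by 1.45. Whichever single array was left out, 1 to 3 members of this list rose and 1 to 3 fell. Among Wnt genes 3 of 23 rose, with Fzd2 at 0.77 and Wnt4 at 0.74, and none fell (11 higher and 1 lower at an unadjusted p under 0.05 in limma). Without the sparse array of day 3 or the dense array of day 2 no Wnt gene rose, and 1 rose without the array of day 1 of either density. The Notch target Hey1 rose by 1.5, the PDGF receptor Pdgfrb by 2.52 ± 0.34 (adjusted p = 0.0019) and Igfbp5 by 2.10, and the EGF receptor ligand Hbegf fell by 1.66. At junctions, where 5 of 28 rose and 3 fell, the tight junction scaffold Tjp1 rose by 1.43, beta-catenin (Ctnnb1) by 0.80 and connexin 43 (Gja1) by 0.64. Without the sparse array of day 1 or the dense array of day 2, 1 junction gene rose.

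With arrays scaled by percentile, as in the main fit, the rescue line responded more broadly to the same densities. With spike-in scaling the order was reversed, with 12379 genes passing in KO and 3432 in rescue cells. The counts that follow are from the main fit. In rescue cells 4977 genes passed (40%), 2366 higher (19%) and 2611 lower (21%), and the median size of a change was 0.55 against 0.34 in KO cells. Across genes the responses of the lines correlated at Pearson's r = 0.26 and a Spearman rank correlation of 0.27, a description over 12435 genes that are not independent, from arrays the lines do not share. Of the genes that changed in KO cells, 334 were higher and 289 lower in both lines, 118 changed in opposite directions and 615 did not pass in rescue cells. Whether a response differed between the lines was tested by the interaction, KO response minus rescue response, and 2579 genes passed (20.7%), 1402 above 0 (11.3%) and 1177 below (9.47%). Of the 1356 genes that changed in KO cells, 463 passed it.

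**Figure D5:**
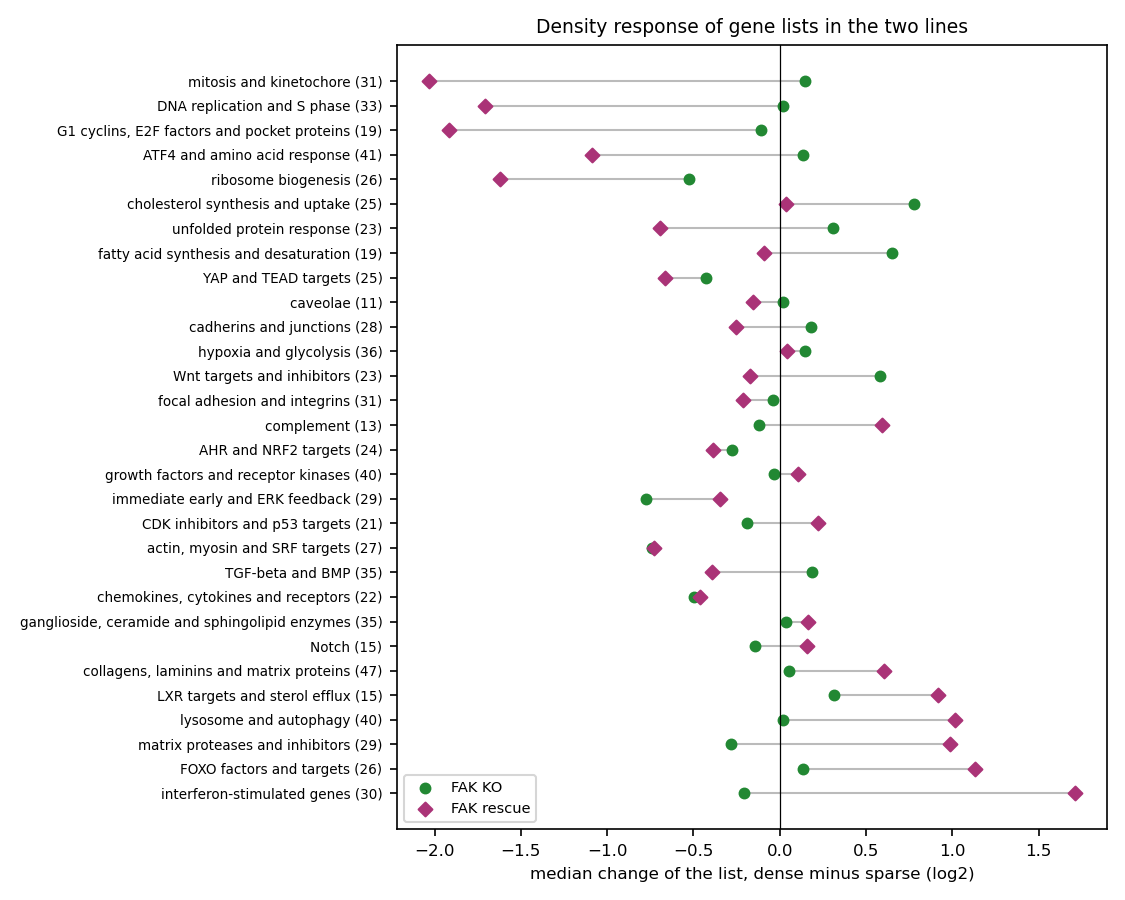
Median change with density (log2, dense minus sparse) of each gene list in FAK KO cells (circles) and FAK rescue cells (diamonds), ordered by the median difference between the lines, with the number of members tested in brackets. The DNA replication list lies at 0.02 in KO and -1.71 in rescue cells, and the actin list at -0.74 and -0.73.

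The cell cycle lists differed between the lines. All 33 replication genes and all 31 mitosis genes fell with density in rescue cells, with medians of -1.71 and -2.03. In KO cells the medians were 0.02 and 0.14. The interaction passed for 27 and 26 of these genes, all above 0. Cdc6 fell by 3.42 in rescue cells, and the interaction was 3.89 (adjusted p = 4.8e-05). Cholesterol genes rose in 2 of 25 cases in rescue cells, with a median of 0.04, and 8 passed the interaction, among them Fdps (1.40, adjusted p = 0.015). For Hmgcs1 and Tm7sf2 the interaction did not pass (0.81 and 0.72, adjusted p = 0.22 and 0.12). Amino acid response genes gave 28 of 41 lower in rescue cells and 23 interactions above 0. The effects of the line and of its medium, which held these amino acids for rescue cells alone, cannot be told apart.

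Other genes had a higher response in rescue cells. Abca1 was above background on all dense and no sparse rescue arrays and was at least 75.9-fold higher in dense rescue cells. Its fitted interaction of -6.96 ± 0.54 (adjusted p = 3.1e-05) uses those sparse values below background. Interferon-stimulated genes (23 of 30 higher in rescue cells, 16 interactions below 0), lysosomal genes (28 of 40 and 18) and FOXO targets (19 of 26 and 10) showed the same order. The median interactions of these lists were -1.82, -0.95 and -1.01. This order is that of arrays scaled by percentile. Spike-in scaling raises every interaction, because the spike-in signal fell more with density in KO than in rescue cells. Whether the order of these lists holds on that scale was not tested. Of the 27 actin genes 14 fell in rescue cells and 5 passed the interaction, and of the 25 YAP and TEAD genes 12 fell and 5 passed it, beside 20.7% of all genes. For Ankrd1 (2.51 lower in KO, 3.0 lower in rescue cells) the interaction was 0.50 (adjusted p = 0.50), for Cdk6 0.13 (adjusted p = 0.82) and for Phlda1 0.11 (adjusted p = 0.83), which does not show that the responses were equal.

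The genes that moved furthest were not all on the lists. Sgk1, a serum- and glucocorticoid-induced kinase, fell by 3.10 ± 0.28 (adjusted p = 0.00072), from 1.33, 0.02 and 0.56 to -2.50, -2.38 and -2.50. Fam13c fell by 3.51 ± 0.26 (adjusted p = 0.00024), from 1.57, 1.1 and 1.68 to -2.44, -1.73 and -2.01, or 11.4-fold by its brighter probe. Its other probe passed the other way, at -2.32, -2.84 and -2.90 in sparse and -1.34, -1.45 and -1.54 in dense cells, 1.24 ± 0.27 higher (SE, probe-level adjusted p = 0.014), and both were above background on all 6 arrays, so the direction of Fam13c is not settled. Ptpn22, a phosphatase, and Acsbg1, an acyl-CoA synthetase, were above background on all sparse arrays and on no dense array, at least 5.01-fold and 4.92-fold lower. The largest fall of all was the 28S probe under its gene name Rn28s1, by 6.02 ± 1.18 (adjusted p = 0.0094). Among the rises, Dhrs3, a retinaldehyde reductase, went from -1.34, -1.42 and -1.74 to 2.24, 1.74 and 1.53, by 3.34 ± 0.48 (adjusted p = 0.0027), or 10.1-fold, and Otop2, a proton channel gene, rose by 3.12. Fxyd1 was above background on dense arrays only, at least 1.89-fold higher. The largest fitted rise, of Syt10 by 6.41 ± 1.85 (adjusted p = 0.047), rested on sparse values of -4.13, 0.30 and -4.55 against 4.12, 3.51 and 3.21, and with day as a replicate block its adjusted p was 0.050. Dcc, the netrin receptor gene, read -7.06 and -7.17 in sparse and -3.10 and -3.79 in dense cells on days 1 and 3 and has no value on day 2. It was above background on 1 sparse array and on all 3 dense arrays, so the size of its difference is uncertain.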

How the data were processed

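RNA of 2 mouse fibroblast lines at 2 seeding densities was labelled with Cy3 and hybridised to 1-colour Agilent arrays, per the labels. The scanner files, which the authors made with Agilent Feature Extraction 10.5.1.1 per the file headers, hold the processed signal as an intensity per spot, already corrected for background. The deposited value table holds log2 values whose scaling is not given in the sources used here; 8 of its 12 columns matched their own scanner file best, and it served as an alternative only.

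Control spots and outlier-flagged spots were left out, spots of a probe were averaged, log2 signals were scaled to the 75th percentile of each array, and each gene was represented by its brightest probe that passed a detection filter (well above background on the 3 arrays of some group). Of 41174 probes, 24375 named a single gene and 25927 passed the filter, which left 12435 genes. A model in limma 3.58.1 (R 4.3.3) was fitted to the 12 arrays together, with 1 mean per group and Benjamini-Hochberg adjustment. No spot was saturated. The precision is limited by 3 arrays per group. The fit was tested on simulated data. Scripts used Python with pandas and matplotlib.

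Days pair the samples because the labels name them, although deviations of same-day KO arrays correlated weakly (-0.04 to 0.17). The 2 arrays of a KO day also share a slide. Blocks, other scalings, background correction, filters, probe rules and left-out arrays were alternatives. Named genes were the 15 largest rises and falls that passed without overlap and above background, the 8 largest interactions each way, up to 5 and 3 per list by direction, and a fixed set. Further members of the cholesterol, immediate early and actin lists that passed were added, some genes are not reported here, and Mt1 was named after its values were seen. The groups, lists and motifs were chosen with earlier results of these data known. Cdkn1b, Rbl2, Bnip3, Igfbp3, Npc1 and Fosl1 each stand on several lists.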

Additional observations from a re-analysis of the deposited data

Results flagged for a closer look

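The response to density differed between the lines, by the test of the difference itself (limma, interaction of line and density, KO response minus rescue response), for 2579 of 12435 genes (20.7%). Among the 145 genes followed by name it passed for 66, with 35 above 0 and 31 below. Their interactions in log2 units follow. For 11 of the 66, Abca1, Hp, Prelp, Ptpn22, Acsbg1, Id4, Fst, Dcc, Cobl, Derl3 and Fxyd1, a group of 3 arrays was above background on none, so that the fitted value rests on signals at the detection limit. Fam13c is given by its brighter probe, and its other probe moved the other way with density in KO cells. Groups of 3 arrays are too small for a test of single outlying arrays.

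A value below 0 means that the signed change with crowding was more negative, or less positive, in KO cells. It does not mean a smaller change: Il6 moved by -2.77 in KO and -1.14 in rescue cells, and Sgk1 by -3.10 and -0.60. The signs given here hold for arrays scaled by percentile. Relative to the percentile, the spike-in signal fell more with density in KO than in rescue cells. Spike-in scaling therefore raises every interaction, and values below 0 can change sign on that scale. Which of these genes would do so was not tested. Lower values were found for Abca1 (-6.96) and Npc1 (-1.19) in sterol efflux. Among secreted and surface proteins they were found for Selenop (-6.48), Mme (-5.38), Hp (-5.31), Adam19 (-4.38), Cxcl10 (-2.99), Bst2 (-1.86), Il6 (-1.63) and Fas (-2.96). Matrix and adhesion genes with lower values were Prelp (-2.70), Fn1 (-2.38), Col8a1 (-1.96) and Itga7 (-1.58). Inducible growth genes and their regulators were Egr1 (-3.08), Nr4a1 (-1.98), Junb (-1.17), Dusp2 (-1.54), Sgk1 (-2.49), Ptpn22 (-2.76) and Cdkn1b (-1.40). Stress genes were Mt1 (-2.64), Mt2 (-2.22), Hmox1 (-2.17), Gsta1 (-1.71) and Ern1 (-0.76). The remaining ones were the actin-linked genes Lmod1 (-1.60) and Myh9 (-0.89) and the genes Acsbg1 (-3.27), Fam13c (-1.96) and Hk1 (-1.95). For Adam19, Fas and Fn1 the lines passed in opposite directions, lower in dense KO cells and higher in dense rescue cells.

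Higher values were found among sterol and lipid genes for Nsdhl (1.1), Fdft1 (1.11), Sqle (1.27), Fdps (1.40), Scarb1 (1.86), Apoe (2.55), Fads2 (1.99) and Ehd2 (0.97). Growth and cell cycle genes with higher values were Cdc6 (3.89), Rbl1 (2.10), Cdkn1a (1.03), Id4 (3.82), Rrp9 (1.27), Etv4 (1.31) and Igfbp3 (1.30). Signalling genes were Fst (4.38), Bmp4 (2.57), Smad6 (2.42), Wnt4 (1.92), Fzd2 (1.74), Ackr3 (2.31) and Dcc (4.28). Matrix, adhesion and cytoskeletal genes were Eln (3.82), Plaur (1.17), Parvb (2.57), Nedd9 (1.27), Gja1 (1.79), Cobl (4.77) and Cnn1 (1.04). Metabolic and stress genes were Aldoc (3.65), Pdk1 (1.75), Slc1a5 (2.03), Derl3 (2.25), Xbp1 (1.09) and Fxyd1 (3.01). Bmp4, Fst, Aldoc, Apoe and Rbl1 passed as higher in dense KO cells and as lower in dense rescue cells.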

How the results depend on the processing

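Counts of KO genes that passed (1356, 676 higher and 680 lower) stayed within 1.5 times under quantile normalization, the percentile over detected probes, the filter on KO arrays, averaged probes, outlier spots kept, the trended prior, KO arrays alone and the slide as a block. Day as a replicate block gave 1595 genes, and KO arrays alone with day as a replicate block gave 540 (265 higher, 275 lower), 464 of them shared with the 1356, and ended the call of 58 of the 145 named genes; in the 12-array fit the block ended the call of Syt10 and of Dusp1 and of no other of the 145 named genes. Without the filter on dim probes 421 genes were higher. With a gene's probes averaged, 8 of the 145 named genes lost their call: Etv5, Tjp1, Col3a1, Hk1, Prelp, Srebf2, Ehd2 and Cdkn1b. Arrays centred on the median gave 1227 higher and 290 lower. Normexp correction, run on the median spot signal in place of the mean signal, gave 48 genes (16 higher, 32 lower), 2321 in rescue cells and 567 interactions; with quantile normalization added, chosen after seeing the data, it gave 405 lower of 1117. The deposited value table as labelled gave 1 gene (0 higher, 1 lower), 0 in rescue cells and 0 interactions in limma (unadjusted p under 0.05 for 955, 903 and 32 genes), and its days 1 and 2, also chosen after seeing the data, gave 775 (232 lower) and 1402 interactions. Leaving out 1 KO array gave 514 to 1042 genes, 255 to 557 higher and 259 to 515 lower, and 1967 to 2572 interactions.

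Spike-in scaling, where nearly all genes rose, gave 12379 genes (12377 higher, 2 lower) and 10802 interactions, and it turned 68 named genes from lower to higher in dense cells: Mt2 0.13, Nog 0.21, Acsbg1 0.22, Sema6a 0.31, Ccl20 0.32, Il6 0.32, Ccl7 0.54, Ankrd1 0.59, Col8a1 0.66, Mt1 0.71, Hmox1 0.87, Myc 0.90, Ccl2 0.91, Adam19 0.93, Inhba 0.96, Ptgs2 1.05, Dusp2 1.21, Cxcl10 1.22, Cers6 1.27, Cdk6 1.29, Itga7 1.31, Actb 1.32, Etv5 1.34, Ccn2 1.34, Fhl2 1.42, Hbegf 1.44, Hk1 1.44, Phlda1 1.45, Etv4 1.49, Ern1 1.5, Hmmr 1.55, Cnn2 1.56, Klf6 1.56, Rrp12 1.60, Dusp4 1.63, Plaur 1.63, Nr4a1 1.69, Tead4 1.71, Nat10 1.74, Tead1 1.76, Plk2 1.78, Gsta1 1.85, Fas 1.88, Spred1 1.91, Slc7a1 1.91, Hp 1.95, Itgav 1.97, Rrp9 1.97, Lmod1 1.97, Actg1 2.03, Bcar1 2.09, Cnn1 2.10, Ccn1 2.14, Junb 2.14, Dusp6 2.15, Myh9 2.16, Hk2 2.20, Mme 2.20, Fn1 2.22, Gclc 2.24, Egr1 2.29, Col4a2 2.30, Dusp1 2.31, Bst2 2.33, Cdkn1b 2.39, Ier5 2.40, Acta2 2.51 and Foxo3 2.89. Other reversals were few. Foxo3 became 0.050 with arrays centred on the median, 0.011 with normexp and quantile normalization, 0.063 in the deposited table and 0.056 in its days 1 and 2. Under normexp Dcc became -1.03, Fxyd1 -0.11 and Ptk2 -0.02. Ptk2 was also 3.18 with spike-in scaling, -0.00069 with quantile normalization added and -0.077 with probes averaged, and ranged from -0.024 to 0.21 without single arrays. In the deposited table Mme became 0.93, Hp 0.078, Cobl -0.46, Cdc6 -0.58 and Egr1 0.62. The cause was not tested. The 3 arrays per group limit the precision, and genes near background have the least certain changes.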

Other observations

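Several stress and detoxification genes were lower in dense KO cells. The metallothionein gene Mt2, whose product binds zinc and copper, read 4.20, 4.67 and 4.64 in sparse and 2.46, 0.76 and 1.39 in dense KO cells, and fell by 2.97 ± 0.44 (SE, limma, adjusted p = 0.0029). Its relative Mt1, named after its values were seen, read 3.55, 3.85 and 3.77 and 1.84, 0.81 and 1.37, and fell by 2.39 ± 0.33 (SE, limma, adjusted p = 0.0023). The groups did not overlap for either gene, and in rescue cells neither passed (Mt2 -0.75, Mt1 0.25). Metallothioneins have similar sequences, so their probes may share signal. Of 24 targets of the aryl hydrocarbon receptor and NRF2, 3 fell and none rose (7 and 1 at an unadjusted p under 0.05 in limma). The haem oxygenase Hmox1 read 5.13, 4.83 and 5.39 in sparse and 2.31, 2.46 and 3.90 in dense cells, and fell by 2.22 ± 0.38 (SE, limma, adjusted p = 0.0054). The glutathione transferase Gsta1 fell by 1.24 and Gclc, of glutathione synthesis, by 0.86. Without the sparse array of day 1 or the dense array of day 2, 1 member of the list fell, and without the dense array of day 1 or the sparse array of day 2 or day 3, 2 did.

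Among amino acid transporters the glutamine carrier Slc1a5 rose by 0.92 ± 0.26 (SE, limma, adjusted p = 0.041) and the cationic carrier Slc7a1 fell by 1.19 ± 0.31 (SE, limma, adjusted p = 0.034). The stress factor Ddit3 read 0.46, 0.48 and 0.54 in sparse and 0.73, 0.49 and 0.68 in dense cells, and its difference of 0.14 did not pass (adjusted p = 0.64). Sema6a, a semaphorin, fell by 2.79 ± 0.57 (SE, limma, adjusted p = 0.011) and was above background on all sparse arrays and on 1 dense array. Of the genes with the largest interactions, Selenop, a selenium transport protein, and Mme, neprilysin, did not pass in KO cells, with differences of 0.85 and -0.89 against 7.33 and 4.48 in rescue cells. Hp, haptoglobin, Id4 and Cobl did not pass in KO cells either, with differences of -1.15, 1.01 and 0.35. In rescue cells 1 of the densities was above background on no array, and dense cells were at least 4.33-fold higher for Hp, at least 4.59-fold lower for Id4 and at least 14.7-fold lower for Cobl.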
